A study of Mus musculus with 12 samples.

Results

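The scavenger receptor genes were described here as 10 genes given by symbol: Cd163, Msr1, Marco, Cd36, Mrc1, Stab1, Stab2, Cd5l, Scarb1 and Vsig4. They were chosen with earlier results of these data known. All 10 were found among the 52553 features of the count tables, and all 10 were among the 20135 features that passed the filter on low counts and were tested. RNA-seq was performed on CD115+ monocytes of male C57BL/6 mice, isolated with magnetic beads after density gradient centrifugation from the spleen and from the peripheral blood. Before the gradient, the spleen was also disaggregated, treated with collagenase and freed of red cells by lysis, steps that the paper does not describe for blood. Differences between blood and spleen therefore cannot be told apart from differences in preparation. Each of the 4 groups (splenic monocytes or peripheral blood monocytes, from intact animals or from animals 24 h after resection of 70% of the liver with the spleen in place) had 3 libraries, and each library held cells pooled from 5 mice. The labels give the intact animals no operation, so that anaesthesia and surgery cannot be told apart from the loss of liver mass. The ages of the animals are not given. Because cells were pooled, p-values describe the spread between pools and not between single mice.

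Scavenger receptors are surface proteins of macrophages, dendritic cells and some endothelial cells that take up modified lipoproteins, dying cells, bacteria and haemoglobin complexes. They belong to several unrelated protein families and are grouped by what they bind. Resident macrophages of the spleen, the liver and the peritoneal cavity each carry their own combination of them, and circulating monocytes are known to carry fewer of them. Of the genes listed, Cd5l codes for a secreted protein of macrophages and Vsig4 for a complement receptor, and both are counted with the group because of their part in the clearance of particles and lipids.

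The 12 libraries held between 36990033 and 46401368 counts. A level is given below as CPM, counts scaled to a common library size of 1e6 after TMM normalisation, and 3 counts corresponded to between 0.0626 and 0.102 CPM. Csf1r, which codes for CD115, had between 9571 and 54592 counts in every library. The 8 monocyte genes summed to 2603 to 2760 CPM in spleen of intact animals and 2258 to 3190 CPM after liver resection. In blood they summed to 3268 to 8648 CPM in intact animals and 11670 to 13460 CPM after liver resection. Some libraries also carried genes of other cell types, and the part these had in any result below was not tested. The summed level of 5 genes of red pulp macrophages (Spic, Vcam1, Slc40a1, Itgad, Axl), the iron-recycling macrophages of the spleen, was 844.7 to 3611 CPM in the 6 spleen libraries and 21.5 to 85.5 CPM in the 6 blood libraries. The summed level of 9 genes of large peritoneal macrophages was 35.4 to 62.2 CPM in 5 spleen libraries and 891 CPM in the remaining one, 447 to 1328 CPM in blood of intact animals and 9329 to 14200 CPM in blood after liver resection. Without Saa3, an acute-phase gene on this list, the other 8 genes summed to 26.0 to 44.0 CPM in the 6 spleen libraries, 436 to 1279 CPM in blood of intact animals and 5421 to 6077 CPM in blood after liver resection. Gata6, the factor that defines these cells, was at 0 to 7 counts in spleen, 111 to 213 in blood of intact animals and 629 to 708 in blood after liver resection. All 8 neutrophil genes rose in blood after liver resection, from 100 to 305 CPM in sum to 3260 to 17200 CPM. In spleen the same genes summed to 810 to 1819 CPM in intact animals and 4749 to 12960 CPM after liver resection, and 2 of the 8 were called higher. The 5 B cell genes summed to 3910 to 4447 CPM in spleen of intact animals and 1071 to 3315 CPM after liver resection. In blood they summed to 484.6 to 2164 CPM in intact animals and 663.5 to 1643 CPM after liver resection. Haemoglobin transcripts took 13.2% to 34.2% of the counts in blood and 0.0814% to 3.47% in spleen.

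Library 3 of the spleen after liver resection and library 3 of the blood of intact animals stood apart from the other libraries of their groups. The former had the lowest red pulp macrophage sum of all spleen libraries (844.7 CPM) and a Saa3 level of 847 CPM, against 36.2 and 19.0 CPM in libraries 1 and 2, which made up nearly all of its peritoneal macrophage sum of 891 CPM. It also had a neutrophil sum of 12960 CPM, against 5018 and 4749 CPM in libraries 1 and 2. The latter had a T cell sum of 2013 CPM, against 596 and 606 CPM in libraries 1 and 2. Its monocyte sum was 3268 CPM, against 8648 and 5946 CPM, and its B cell sum 484.6 CPM, against 1504 and 2164 CPM. Its platelet sum was 116.6 CPM, against 426.8 and 323.2 CPM, and its haemoglobin share 13.2%, against 33.1% and 25.6%. Library 3 of the blood after liver resection also differed from libraries 1 and 2 of its group. Its neutrophil sum was 17200 CPM, against 3260 and 3952 CPM, and its haemoglobin share 16.6%, against 29.4% and 34.2%. Results that rest on either library are given below with and without it.

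**Figure D1:**
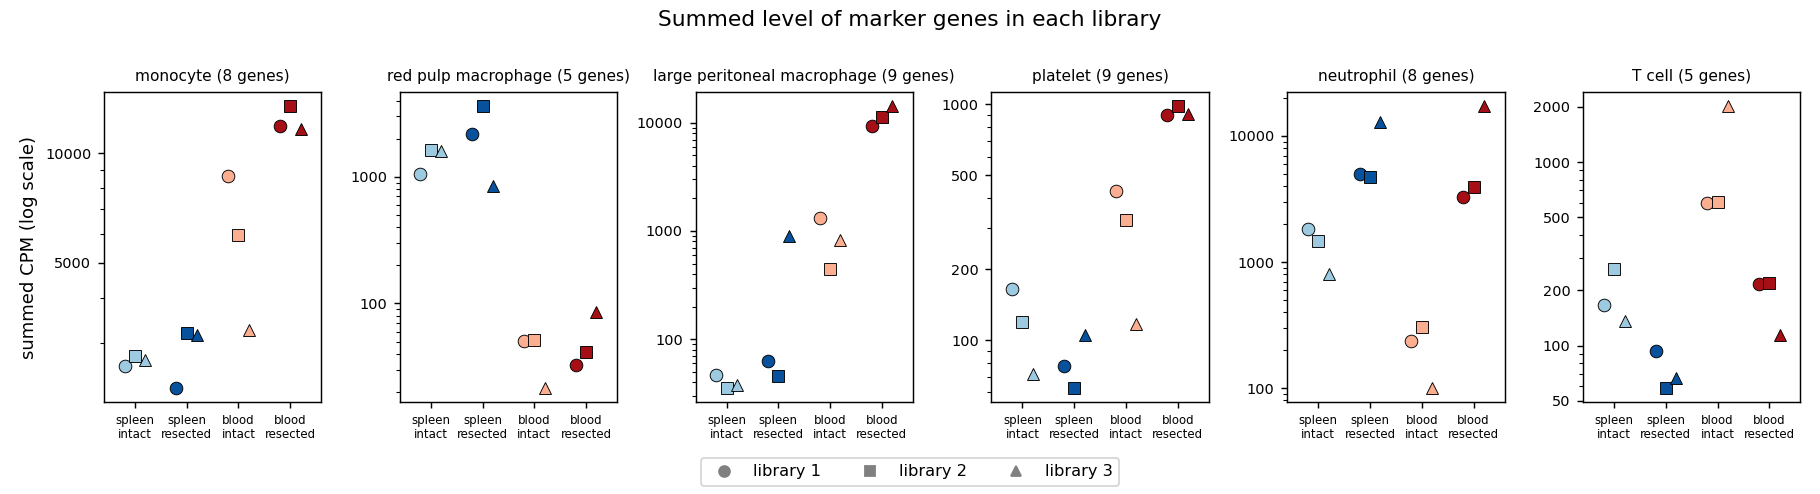
Summed CPM of the marker genes of 6 cell types (log scale) in each of the 12 libraries, with 1 point per library and the shape giving the library number. The red pulp macrophage sums of the spleen libraries lie above all blood libraries, the peritoneal macrophage sums are highest in blood after liver resection, and library 3 of the resected spleen group lies apart from libraries 1 and 2 on both panels, on the peritoneal one through Saa3 (847 of 891 CPM).

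In all, 4 genes of the group were found to rise in peripheral blood monocytes after liver resection, Cd163, Msr1, Stab1 and Vsig4, and the 250 bases upstream of the start are shown for the 3 of them that had an entry in the RefSeq promoter table (assembly GRCm38.p6), 5′ to 3′ on the strand of the gene. Capitals mark GAGGAA, the core motif bound by PU.1, the factor coded by Spi1 that myeloid cells depend on.
Cd163, chr6:124304401-124304650, plus strand: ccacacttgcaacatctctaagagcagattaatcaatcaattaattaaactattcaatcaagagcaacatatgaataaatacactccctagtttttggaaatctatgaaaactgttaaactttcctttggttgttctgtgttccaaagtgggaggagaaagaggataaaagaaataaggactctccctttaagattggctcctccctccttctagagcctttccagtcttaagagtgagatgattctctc
Stab1, chr14:31168642-31168891, minus strand: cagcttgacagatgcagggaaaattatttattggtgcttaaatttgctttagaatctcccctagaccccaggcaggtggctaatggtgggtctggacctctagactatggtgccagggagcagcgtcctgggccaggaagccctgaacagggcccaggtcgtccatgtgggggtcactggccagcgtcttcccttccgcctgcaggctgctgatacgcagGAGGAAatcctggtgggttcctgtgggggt
Vsig4, chrX:96293439-96293688, minus strand: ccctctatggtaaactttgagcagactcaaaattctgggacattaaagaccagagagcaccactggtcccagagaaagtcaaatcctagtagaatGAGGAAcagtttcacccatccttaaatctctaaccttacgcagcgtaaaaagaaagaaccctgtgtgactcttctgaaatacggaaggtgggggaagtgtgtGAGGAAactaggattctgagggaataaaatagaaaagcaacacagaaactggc

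GAGGAA, searched on both strands, was present in 5 of the 8 windows available for the group (Marco, Mrc1, Cd5l, Stab1 and Vsig4) and in 23.3% of all 32851 windows of the same length. The Vsig4 window held it at 2 places and the Stab1 window at 1 place, and the Cd163 window held none. The AP-1 motif TGANTCA (6.75% of all windows), the antioxidant response motif TGACNNNGC (10.2%) and the glucocorticoid response element (palindromic motif with a 3-base gap, 0.387%) were in none of the 8. The nuclear receptor hexamer AGGTCA (14% of all windows) was in the windows of Cd36 and Stab2. Some of these motifs share letters, so that the same stretch may be counted under more than 1 of them. Msr1 and Scarb1 had no entry.

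The first question was whether the scavenger receptor genes changed in peripheral blood monocytes after liver resection. A gene was said to rise or fall when its adjusted p-value in the edgeR fit over all features was under 0.05 and its log2 fold change was beyond 1 in size. By this rule 4 of the 10 genes rose and none fell. Of all features tested, 13.9% were called in this comparison, 7.80% as higher and 6.11% as lower. The median log2 difference of the 10 genes was 2.25 and that of all features −0.10. For 8 of the 10 genes the libraries after liver resection did not overlap with those of intact animals, against 38.4% of all features. The genes were chosen with earlier results of these data known. The shares here and below therefore describe the 10 genes and do not test them as a set.

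In spleen, the same comparison called none of the 10 genes, where 1.38% of all features were called, 0.780% as higher and 0.596% as lower. The median log2 difference was 1.44 for the 10 genes and 0.05 for all features, and 4 of the 10 (Cd163, Marco, Stab1 and Scarb1) did not overlap between the groups, against 35.1% of all features. At an unadjusted p under 0.05 in edgeR, 6 of the 10 were higher and none lower, and 20.8% of all features were below that p in either direction. DESeq2 on the same features called 4 (Cd163, Marco, Stab1 and Vsig4) and 7.77% of all features. Without the 2 libraries that stood apart, edgeR also called 4, but not the same 4: Cd163 (2.25), Mrc1 (1.30), Cd5l (3.00) and Vsig4 (2.76), with 2.59% of all features called. Whether the response to liver resection differed between blood and spleen was tested as well, and this difference was called for none of the 10 genes in edgeR and for 0.283% of all features (0.219% as a greater rise in blood and 0.0646% as a smaller one). At an unadjusted p under 0.05 it held for 2 (Cd163 and Msr1), against 17.3% of all features, and DESeq2 called these 2 and 5.78% of all features.

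**Figure D2:**
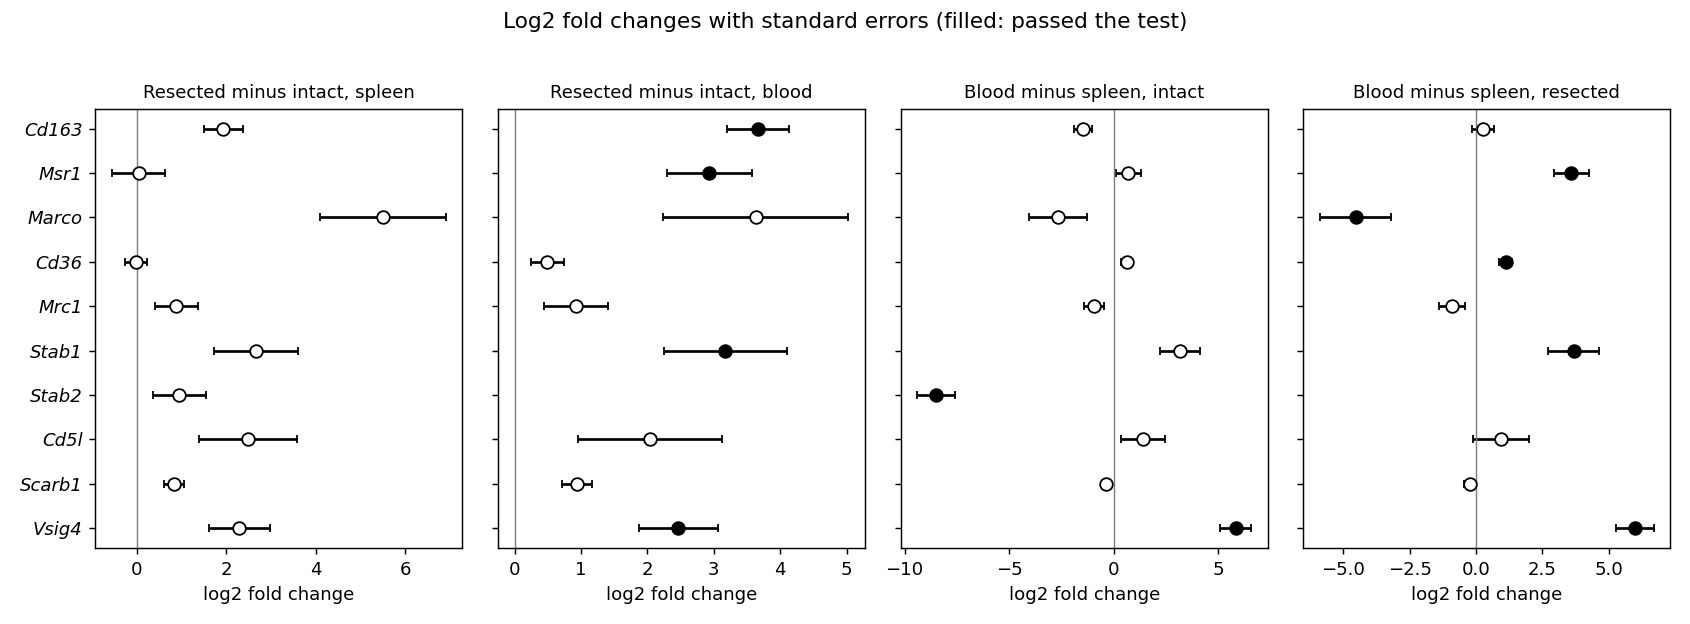
Log2 fold changes (points) and their standard errors (bars) for each gene in the 4 comparisons, with 3 libraries per group; filled points passed the test. Cd163, Msr1, Stab1 and Vsig4 are filled in the blood panel and no gene is filled in the spleen resection panel; Stab2 is left out of the panels for blood after liver resection, where it had at most 3 counts per library.

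Cd163 codes for the receptor by which macrophages take up complexes of haemoglobin and haptoglobin. In peripheral blood monocytes it was at 21.2, 18.0 and 17.9 CPM in the 3 libraries of intact animals. After liver resection it was at 231, 220.4 and 274 CPM. The groups were far apart and the libraries within each were close. The rise was 12.7-fold (log2 3.67, SE 0.46, adjusted p = 0.00131), and it was called in all 12 fits that left out 1 library, with a log2 change of 3.59 to 3.79. This was the largest called fold change of the 10 genes in blood.

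In splenic monocytes Cd163 was at 23.2, 75.9 and 60.8 CPM in intact animals and at 236, 269 and 105 CPM after liver resection. The groups did not overlap, although library 3 of the resected group was the lowest of its group. The difference of 1.93 on the log2 scale (SE 0.43) had an adjusted p of 0.0518 and did not pass. It was 2.25 without library 3 (adjusted p = 0.0725), and passed without library 3 of the blood of intact animals (1.93, adjusted p = 0.0352). Between the tissues, Cd163 did not pass in intact animals (blood minus spleen −1.49, SE 0.43, adjusted p = 0.0572), although every spleen library lay above every blood library, and passed without library 1 of the intact spleen (−1.75) or library 3 of the resected spleen (−1.39). After liver resection the difference was 0.25 (SE 0.42, adjusted p = 0.725).

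Cd5l codes for a secreted macrophage protein, also called AIM, built of the same cysteine-rich scavenger domains as CD163. In peripheral blood monocytes it was at 36.6, 14.8 and 334 CPM in intact animals and at 513, 645 and 431 CPM after liver resection. The groups did not overlap, but library 3 of the intact animals lay far above the other two and close to the resected libraries. With all libraries the log2 difference was 2.04 (SE 1.08, adjusted p = 0.202). Without that library it was 4.36 (SE 0.98, adjusted p = 0.0155), so whether Cd5l was called in blood depended on this 1 library. In splenic monocytes Cd5l was at 62.8, 43.8 and 40.8 CPM in intact animals and at 389.5, 397 and 35.0 CPM after liver resection. Here library 3 of the resected group lay below all intact libraries while libraries 1 and 2 lay well above them. The difference was 2.48 (SE 1.10, adjusted p = 0.233) with this library and 3.00 (SE 1.01, adjusted p = 0.227) without it.

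Msr1 codes for the class A receptor SR-A, which binds modified low-density lipoprotein and bacterial surface molecules. In peripheral blood monocytes it was at 76.7, 43.9 and 58.0 CPM in intact animals and at 352, 518 and 495 CPM after liver resection. The groups did not overlap. It rose 7.65-fold (log2 2.94, SE 0.64, adjusted p = 0.0115) and was called in all 12 fits without 1 library. In splenic monocytes it was at 44.0, 50.6 and 15.3 CPM in intact animals and at 18.1, 17.6 and 77.0 CPM after liver resection. Both spleen groups had 1 library away from its other two, in opposite directions, and the groups overlapped (log2 0.04, SE 0.60, adjusted p = 0.986). Without library 3 of the resected group the difference was −1.04 (SE 0.47, adjusted p = 0.346). The blood minus spleen difference was 0.70 (SE 0.60, adjusted p = 0.516) in intact animals and 3.60 (SE 0.66, adjusted p = 0.00601) after liver resection. The difference between the 2 resection effects was 2.90 (SE 0.86, adjusted p = 0.169), and 3.97 (adjusted p = 0.0463) without library 3 of the resected spleen group.

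Marco codes for the other class A receptor of the group, known from marginal zone and alveolar macrophages. In splenic monocytes it was at 2.36, 3.61 and 1.75 CPM in intact animals and at 21.5, 5.07 and 321 CPM after liver resection. The resected group was above the intact one in every library, but in proportion its 3 libraries spanned the widest range of any gene here. The difference of 5.49 (SE 1.41, adjusted p = 0.0732) was 2.37 (SE 0.92, adjusted p = 0.283) without library 3, and passed without library 3 of the blood of intact animals (5.49, adjusted p = 0.0430). In peripheral blood monocytes Marco was at 0.0551, 0.206 and 0.896 CPM in intact animals, or 2, 8 and 41 counts, and at 3.42, 5.23 and 6.31 CPM after liver resection. The groups did not overlap, and the difference of 3.63 (SE 1.40) had an adjusted p of 0.0915. It passed in DESeq2 (3.74) and in edgeR without library 2 or library 3 of the resected spleen group (without the latter 3.67, adjusted p = 0.0245). Without library 3 of the blood of intact animals the difference was 5.20 (SE 2.00, adjusted p = 0.0959). After liver resection Marco was called lower in blood than in spleen (−4.54, SE 1.35, adjusted p = 0.0416), but the libraries overlapped, the call was kept in 2 of the 12 fits without 1 library, and without library 3 of the spleen the difference was −1.31 (adjusted p = 0.351).

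Stab1 and Stab2 code for the stabilins, large receptors of sinusoidal endothelium and of some macrophages that clear modified lipoproteins, hyaluronan and other matrix fragments. Stab1 was at 31.6, 4.96 and 14.9 CPM in peripheral blood monocytes of intact animals and at 118, 188 and 159 CPM after liver resection. The groups did not overlap, and the intact libraries differed more among themselves, in proportion, than the resected ones. Stab1 rose 9.04-fold (log2 3.18, SE 0.93, adjusted p = 0.0365), but the call was kept in only 5 of the 12 fits without 1 library, with a log2 change of 2.74 to 4.03 over the 12. It was lost without any 1 of the 3 resected blood libraries, without library 2 (2.74) or library 3 (3.08) of the blood of intact animals, and without library 1 or 2 of the intact spleen.

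In splenic monocytes Stab1 was at 2.50, 2.38 and 0.830 CPM in intact animals and at 3.83, 3.28 and 29.2 CPM after liver resection. Libraries 1 and 2 of the resected group were just above the intact ones, and library 3 was far above both. The difference of 2.66 (SE 0.93, adjusted p = 0.145) was 0.90 (SE 0.69, adjusted p = 0.590) without library 3. Stab1 was higher in blood than in spleen in every library of both conditions. The difference was 3.17 (SE 0.95, adjusted p = 0.0657) in intact animals, where it passed without library 3 of the resected spleen group (3.27, adjusted p = 0.0189). After liver resection it was 3.68 (SE 0.95, adjusted p = 0.0250), a call kept in 8 of the 12 fits without 1 library.

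Stab2 showed the reverse distribution. In splenic monocytes it was at 19.1, 26.8 and 37.3 CPM in intact animals and at 60.5, 87.6 and 12.2 CPM after liver resection, with library 3 of the resected group below all others. The resection difference in spleen was 0.95 (SE 0.60, adjusted p = 0.403) and 1.42 (SE 0.40, adjusted p = 0.163) without library 3. In blood Stab2 was barely detected, with 2, 2 and 5 counts in intact animals and 0, 1 and 3 counts after liver resection, and no fold change is given there. In intact animals the spleen libraries had 3944 counts and the blood libraries 9, which gave a ratio of 372 (95% exact interval 196 to 815, covering counting error only, log2 −8.50, SE 0.90, adjusted p = 0.00129). After liver resection Stab2 was at least 577-fold lower in blood than in spleen, with the floor set at 3 counts in each blood library (adjusted p = 0.000431). Most of the Stab2 counts in spleen were deposited under a predicted RefSeq transcript that the gene table assigns to Stab2. The 11 endothelial genes summed to 17.1 to 25.9 CPM in the spleen libraries and to 25.3 to 61.1 CPM in the blood libraries, and Cdh5 and Tek, which define endothelium, had at most 70 and 12 counts in any library. Of the 10 endothelial genes tested, Robo4 was called lower in blood than in spleen in both conditions and Egfl7 after liver resection, Lyve1 was called higher in blood in both conditions and Ehd3 in intact animals. All 5 red pulp macrophage genes were called lower in blood in both conditions.

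**Figure D3:**
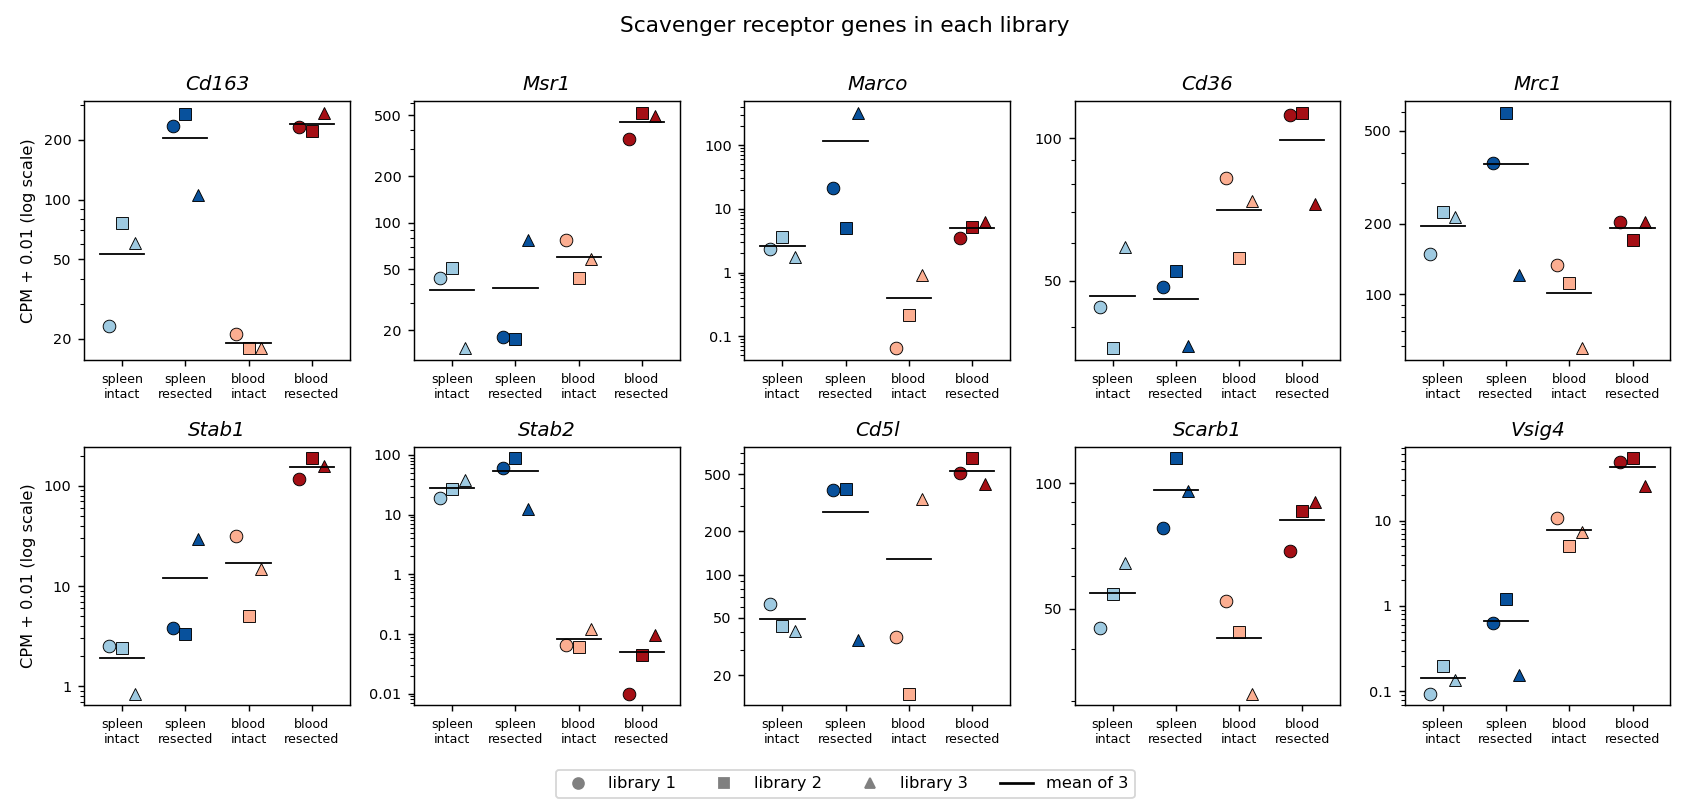
CPM plus 0.01 (log scale) of each gene in the 12 libraries, with 1 point per library, the shape giving the library number and a line at the mean of the 3. In blood, 8 of the 10 genes have all resected libraries above all intact ones; Stab2 lies near 0 in every blood library, and Vsig4 lies near 0 in every spleen library of intact animals.

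Vsig4 codes for CRIg, a receptor for complement C3b known from Kupffer cells and large peritoneal macrophages. It was at 10.8, 5.04 and 7.36 CPM in peripheral blood monocytes of intact animals and at 49.0, 53.3 and 25.6 CPM after liver resection. The groups did not overlap. Vsig4 rose 5.52-fold (log2 2.46, SE 0.60, adjusted p = 0.0175), and the call was lost without library 2 of the intact (2.25) or of the resected blood group (2.27). In splenic monocytes it was at 0.0842, 0.188 and 0.128 CPM in intact animals, or 4, 9 and 6 counts, and at 0.631, 1.20 and 0.148 CPM after liver resection. Library 3 of the resected group lay among the intact ones, and the difference of 2.29 (SE 0.69, adjusted p = 0.104) did not pass. Without library 3 it was 2.76 (SE 0.52, adjusted p = 0.081). Vsig4 had the largest excess of blood over spleen of the 10 genes, 56.7-fold in intact animals (log2 5.83, SE 0.73, adjusted p = 0.00238) and 64.0-fold after liver resection (log2 6.0, SE 0.71, adjusted p = 0.000923), and both calls were kept in all 12 fits without 1 library. Of the 9 large peritoneal macrophage genes, 8 were called higher in blood than in spleen in both conditions and 8 rose in blood after liver resection. Of the 3 Kupffer cell genes, which summed to 3.59 to 12.3 CPM in spleen and 22.9 to 90.4 CPM in blood, Folr2 and Timd4 were called higher in blood than in spleen in both conditions, and Timd4 is also on the peritoneal list. The remaining one, Clec4f, which defines Kupffer cells, had 1, 13 and 0 counts in blood of intact animals and at most 2 in any other library.

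Mrc1 codes for the mannose receptor of macrophages and sinusoidal endothelium. In splenic monocytes it was at 149, 224 and 213 CPM in intact animals and at 364, 595 and 121 CPM after liver resection. Library 3 was again the lowest of its group and lay below the intact animals. The difference was 0.88 (SE 0.48, adjusted p = 0.335), and 1.30 (SE 0.35, adjusted p = 0.144) without library 3. In peripheral blood monocytes Mrc1 was at 133, 111 and 58.9 CPM in intact animals and at 204, 171 and 203 CPM after liver resection. These groups did not overlap, and the difference of 0.93 (SE 0.49, adjusted p = 0.197) did not pass. The blood minus spleen difference was −0.95 (SE 0.49, adjusted p = 0.254) in intact animals and −0.90 (SE 0.48, adjusted p = 0.220) after liver resection, where it was −1.22 (adjusted p = 0.0408) without library 3 of the spleen.

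The class B receptors Cd36 and Scarb1 had the smallest standard errors of the 10 genes in the resection comparisons (0.22 to 0.25 on the log2 scale). Cd36 codes for a receptor for oxidised lipoproteins, long-chain fatty acids and thrombospondin that is also carried by platelets. It was at 44.1, 36.0 and 59.0 CPM in the spleen of intact animals and at 48.6, 52.4 and 36.4 CPM after liver resection (log2 −0.02, SE 0.25, adjusted p = 0.983). In blood it was at 82.3, 55.8 and 73.8 CPM in intact animals and at 112, 113 and 72.7 CPM after liver resection (log2 0.49, SE 0.25, adjusted p = 0.183). Both pairs of groups overlapped. Cd36 was higher in blood than in spleen after liver resection (2.17-fold, log2 1.12, SE 0.25, adjusted p = 0.0139), a call kept in all 12 fits without 1 library, and the difference in intact animals was 0.61 (SE 0.25, adjusted p = 0.157). The 9 platelet genes summed to 62.6 to 105 CPM in the spleen and to 904 to 980 CPM in the blood after liver resection, and 8 of them were called higher in blood there (median log2 difference 3.89). In intact animals, where Cd36 was not called, they summed to 71.7 to 165 CPM in spleen and 117 to 427 CPM in blood, and 7 were called higher in blood (median 3.82).

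Scarb1 codes for the high-density lipoprotein receptor SR-BI. In spleen it was at 44.8, 54.1 and 64.3 CPM in intact animals and at 78.1, 115 and 96.0 CPM after liver resection. In blood it was at 52.3, 44.0 and 31.3 CPM in intact animals and at 68.7, 85.6 and 90.2 CPM after liver resection. In both tissues the resected libraries lay above all intact ones. In blood the difference was 0.94 (SE 0.22, adjusted p = 0.0164), which passed the p threshold but not the fold limit. It passed both without library 1 of the intact (1.15) or of the resected blood group (1.05). In spleen it was 0.82 (SE 0.22, adjusted p = 0.0836). The blood minus spleen differences were −0.36 (SE 0.22, adjusted p = 0.354) and −0.24 (SE 0.22, adjusted p = 0.487), and those of the resection effect 0.12 (SE 0.31, adjusted p = 0.890).

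Most of the genes were not called between the 2 tissues in intact animals. Only 1 of the 10 genes was called higher in blood (Vsig4) and 1 lower (Stab2), where 7.35% of all features were called (3.86% as higher and 3.49% as lower), and 6 of the 10 did not overlap, against 34.5% of all features. After liver resection 4 were called higher in blood (Cd36, Msr1, Stab1 and Vsig4) and 2 lower (Marco and Stab2), where 13.2% of all features were called (6.28% as higher and 6.87% as lower). Again 6 of the 10 did not overlap, against 42.4% of all features. These comparisons share their libraries with the resection comparisons. In bulk samples, fewer cells of a type and less RNA per cell cannot be told apart.

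To compare the levels of the genes with each other, CPM was divided by the length of the merged exons in kilobases. Per kilobase, Mrc1 was the highest in spleen of intact animals (30.7 CPM per kilobase), followed by Cd5l (24.1), and Vsig4 the lowest (0.0898). After liver resection Cd5l was the highest in spleen, at 134.5 ± 101.6 CPM per kilobase (SD, n = 3), followed by Marco at 60.2 ± 92.5 and Mrc1 at 56.5. The spread of the first 2 covers their difference from Mrc1. In blood of intact animals Cd5l came first, at 63.1 ± 87.6 CPM per kilobase, and Cd36 (19.7) and Mrc1 (15.9) followed within that spread. This rank rested on library 3 (164 for Cd5l), since in libraries 1 and 2 Cd5l (18.0 and 7.28) was below Cd36 (22.9 and 15.6) and Mrc1 (20.9 and 17.5). After liver resection Cd5l was at 260.0 ± 53.1 CPM per kilobase in blood, and its lowest library lay above the highest of any other gene, with Msr1 (71.7) and Cd163 (44.3) next. Of the summed level per kilobase of the 10 genes, Cd5l made up 48.3% to 56.1% in the 3 libraries of resected blood. Marco made up 64.1% in library 3 of the resected spleen group and at most 3.32% in every other library.

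**Figure D4:**
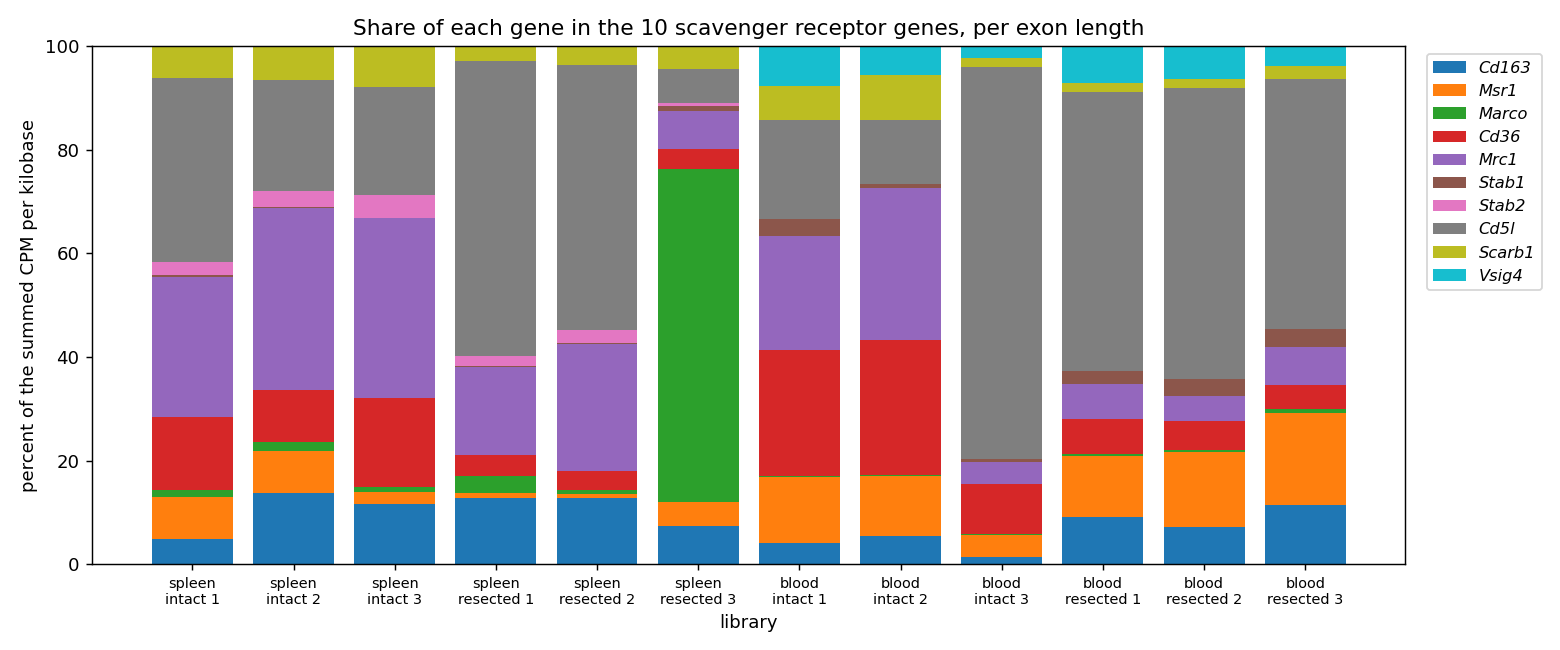
Share of each gene in the summed CPM per kilobase of the 10 scavenger receptor genes, in percent, with 1 bar per library. Marco takes 64.1% of library 3 of the resected spleen group, Cd5l takes 75.7% of library 3 of the blood of intact animals, and the 3 libraries of resected blood have like shares.

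The genes differed in how they varied between the libraries of one group. In library 3 of the resected spleen group, Marco, Stab1 and Msr1 lay above the mean of their group by 3.3, 2.0 and 1.4 on the log2 scale. In the same library Cd5l, Stab2, Vsig4, Mrc1 and Cd163 lay below it, with deviations of −2.3, −1.7, −1.5, −1.3 and −0.8. Scarb1 and Cd36 deviated by 0.0 and −0.3. The same library had Saa3 at 34473 counts, against 1551 and 871 in libraries 1 and 2, and Itgam at 57451 counts, against 11547 and 8925. In library 3 of the blood of intact animals Cd5l and Marco lay 2.6 and 1.7 above the mean of their group.

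**Figure D5:**
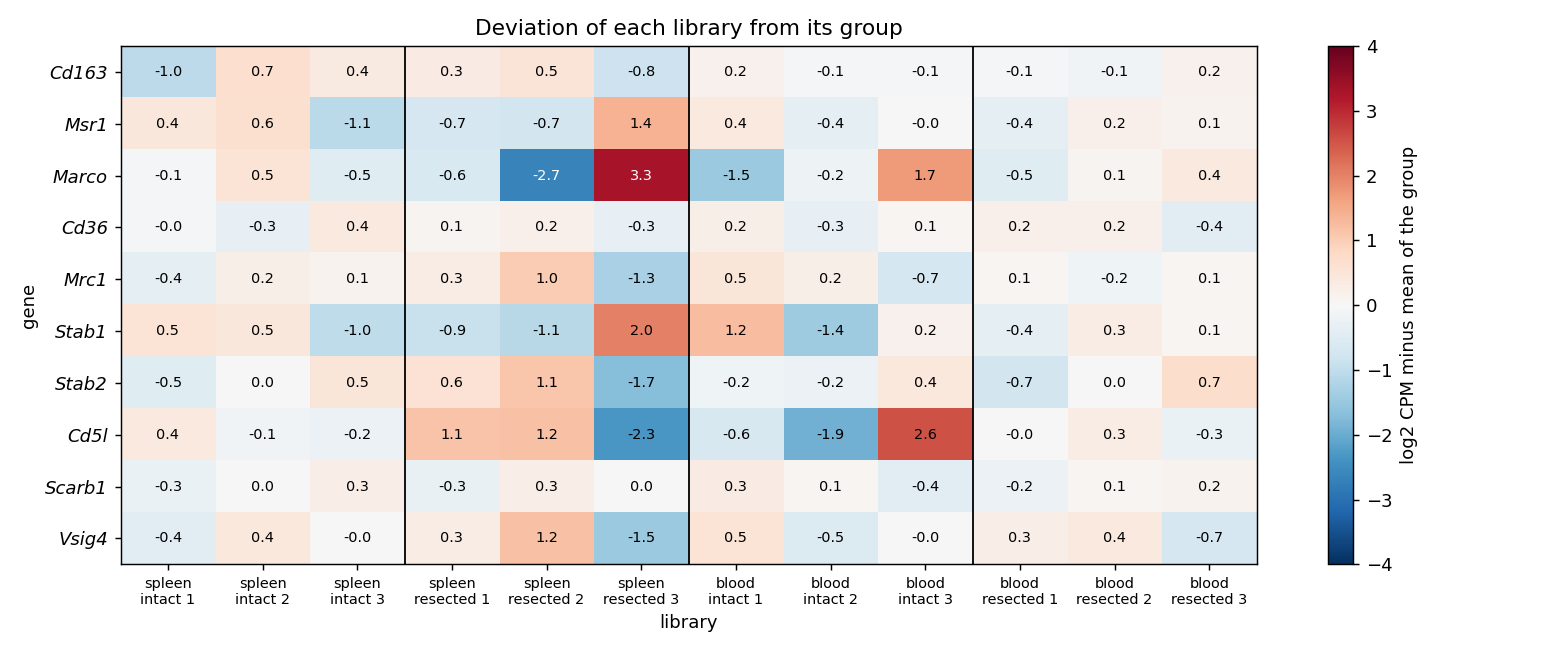
Log2 CPM of each gene in each library minus the mean of its group, on a colour scale from −4 (blue) to 4 (red), with groups separated by black lines. Library 3 of the resected spleen group has Marco, Stab1 and Msr1 above and Cd5l, Stab2, Vsig4, Mrc1 and Cd163 below the mean.

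The genes with the most similar pattern over the 12 libraries were listed for each member by Pearson correlation of log2 CPM, as a description only, since the points share groups and libraries. For Cd163 these were Renbp (r = 0.97), Slc7a7 (0.97) and Eva1c (0.96). For Msr1 they were Mfsd6, Serpinb8 and Gusb (0.98 each), and for Stab1 F7, Emilin1 and Gm34159 (0.98 each). Stab2 was most like Asb2, Btnl4 and Vstm4 (0.99 each), and Vsig4 most like Gm16104 (0.99), Krt19 (0.99) and Gas1 (0.98). Cd5l was followed less closely, by Igsf8 (0.90), Prdx1 (0.90) and Blvra (0.89), the last of which codes for a biliverdin reductase. For Marco the nearest were Tmem268 (0.91), Prrg4 (0.91) and Preb (0.90), for Cd36 Hsd17b14, 4930455G09Rik (0.94 each) and Fam171a1 (0.92), for Mrc1 Ric3, Dbndd2 (0.92 each) and Cyb5r1 (0.91), and for Scarb1 Sdsl (0.97), Bmp1 and Fbxo30 (0.95 each). Among the members, Msr1 and Stab1 had the most similar pattern (r = 0.93), and their deviations from the group means also went together (0.92). Marco and Mrc1 deviated from their group means in opposite directions (−0.94). Both deviated most in the resected spleen group, in library 3 (3.3 and −1.3) and library 2 (−2.7 and 1.0).

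Of 19 other scavenger receptor genes 16 were tested. In blood after liver resection 7 rose and 3 fell, with a median log2 difference of 1.14. Of all features, 7.80% were called higher and 6.11% lower in this comparison. Those that rose were Olr1, the receptor LOX-1 for oxidised lipoprotein (5.31), Cxcl16 (2.78), Cd68, the macrophage sialomucin (2.20), Scarf2 (1.98), Scarb2 (1.69), Cd44 (1.66) and Lrp1 (1.52). Those that fell were Scart1 (−6.21), Cd5 (−1.94) and Cd6 (−1.90), which lymphocytes carry, and the groups overlapped for Scart1 and Cd5. All 5 T cell genes fell in the same comparison, and Scart1 had 3497 counts in library 3 of the blood of intact animals and at most 37 in any other library. None of the 16 were called in spleen (median 0.47), where 1.38% of all features were called. Between the tissues, Dmbt1 (7.45) and Cd6 (2.07) were higher in blood in intact animals, where 3.86% of all features were called higher. After liver resection 9 of the 16 were higher in blood, against 6.28% of all features. Dmbt1 had 1199 counts in library 3 of the blood of intact animals and at most 25 in any other library.

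CD163 hands haemoglobin to a known pathway, in which haem oxygenase 1 (Hmox1) breaks down haem, biliverdin reductases act on its product, ferritin stores the iron and ferroportin (Slc40a1) exports it. All 9 genes listed for haemoglobin uptake and haem breakdown were tested, among them Hp, which codes for haptoglobin and is not a step of this pathway. In blood after liver resection 6 rose and none fell, namely Hp (4.39), Hmox1 (4.0), Slc40a1 (2.80), Fth1 (2.31), Blvrb (1.94) and Ftl1 (1.68). Of all features, 7.80% were called higher there. In spleen Hmox1 was the only gene called (1.79, SE 0.33, adjusted p = 0.0345), where 1.38% of all features were called. In intact animals Slc40a1 (−5.76) and Hmox1 (−2.84) were lower in blood than in spleen, and Slc48a1, a haem transporter, was higher (1.89). After liver resection Slc40a1 (−3.02) was the only one called lower in blood, and Slc48a1 (1.30) and Ftl1 (1.27) were called higher.

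Of 12 genes of lipoprotein and cholesterol handling 11 were tested. In blood after liver resection 3 rose, the lipid droplet gene Plin2 (2.22), the cholesterol exporter Abca1 (1.19) and Npc1 (1.18), which moves cholesterol out of lysosomes, and none fell. Of all features, 7.80% were called higher and 6.11% lower there. None of these genes were called in spleen, where 1.38% of all features were called. Abca1 was lower in blood than in spleen in intact animals (−1.34), and Npc1 was higher in blood after liver resection (1.10). Of the transcription factors known for the scavenger receptor genes, Spic (2.20) and Spi1 (1.83) rose in blood after liver resection, and none were called in spleen. In intact animals Spic (−5.71), Nr1h3 (−2.60), Maf (−1.14) and Nfe2l2 (−1.13) were lower in blood than in spleen. After liver resection Spic (−4.62), Pparg (−3.90) and Nr1h3 (−3.09) were lower. Spic is the factor that red pulp macrophages depend on. No gene of these 4 lists was called for a different response to resection in blood and in spleen, where 0.283% of all features were called.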

How the data were processed

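For each library the authors deposited a table of estimated counts that were neither scaled nor length-corrected. STAR and the genome build GRCm39 are named in the submitters' processing notes; the counting tool is not given in the sources used here. Of 67088 entries, 2558 unassigned transcripts (1.75% to 4.33% of a library) were left out, 25340 RefSeq accessions were matched to symbols through the RefSeq gene table of GRCm38.p6, and 14934 unmatched ones were kept. Counts were summed per gene and rounded. How reads shared between genes were treated is not given.

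Groups and replicate numbers came from the labels, which give no batch. In R 4.3.3, edgeR 4.0.16 (filterByExpr, TMM, robust glmQLFit and glmQLFTest) was fitted over all 12 libraries and 4 groups without covariates, with Benjamini-Hochberg adjustment over 20135 features. SE is the size of the log2 fold change divided by the root of F. The fit was also run on simulated counts. These were drawn with a smaller dispersion than the common dispersion of these data (0.312), so that run checks the code only. No 2 libraries of a group agreed within sampling noise (chi-square per degree of freedom 19.7 or more). Exon lengths came from GENCODE M21 and promoters from RefSeq, both on GRCm38. Alternatives were DESeq2 1.42.0, other normalisations, filters and sample sets, and leaving out each library.

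The genes and lists were chosen with earlier results of these data known. Genes named were the 10 members, called genes of the 4 further lists (some are not reported here), the 3 genes most similar to each member, and markers that bear on a member. Some were chosen after their values were seen, namely Saa3, Itgam, Scart1 and Dmbt1 in single libraries.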

Additional observations from a re-analysis of the deposited data

How the results depend on the processing

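The number of the 10 genes called was 4 for resection in blood, 0 for resection in spleen, 2 and 6 for blood against spleen in intact and resected animals, and 0 for the difference of the resection effects. The shares of all features called were 13.9%, 1.38%, 7.35%, 13.2% and 0.283%. Without 1 library each, the numbers of the 10 genes ranged from 2 to 5, 0 to 2, 2 to 4, 4 to 6 and 0 to 1. The shares of all features ranged from 7.71% to 13.4%, 0.00473% to 4.87%, 2.51% to 7.09%, 6.88% to 17.2% and 0.0236% to 0.442%. For resection in blood, the fewest of the 10 genes were called without library 2 of the intact or of the resected blood group (2 each, with 11.6% and 8.35% of all features). Resection in spleen gave 2 only without library 3 of the blood of intact animals, intact blood against spleen 4 only without library 3 of the resected spleen, which also gave the 1 call of the difference (Msr1). In these fits 4.87%, 6.96% and 0.442% of all features were called. DESeq2 gave 4 for resection in spleen, 4 for intact blood against spleen and 2 for the difference, with 7.77%, 12.8% and 5.78% of all features. A filter of 10 counts in every library left 7 genes and gave 1, 1 and 3 for resection in spleen and the 2 tissue comparisons. The shares of all features were 3.61%, 7.77% and 14.6%. Entries under a gene symbol alone gave 2 for resection in spleen and 4 for intact blood against spleen, with 2.9% and 10.8% of all features. The 2 libraries that stood apart were also left out together, a choice made after seeing the data. This gave 4 each for resection in spleen and intact blood against spleen, 6 for resection in blood (Marco and Cd5l gained) and 1 for the difference. The shares of all features were 2.59%, 8.74%, 14.2% and 1.71%.

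Correlations of the deviations of same-numbered libraries were −0.046 to 0.19, over 0.1 only for 2 of the 3 pairs of blood and spleen after resection. Whether same-numbered libraries share mice is not given, and they were not treated as pairs. With the replicate number as a block 3, 0, 2, 5 and 0 genes were called, with 10.8%, 0.745%, 5.77%, 11.2% and 0.00497% of all features. Over all features the block gave 150 in place of 277 calls for resection in spleen and 1 in place of 57 for the difference, DESeq2 gave 1564 and 1163, and leaving out 1 library gave 1 to 1025 for resection in spleen.

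Some uncalled differences changed sign. In spleen, Msr1 was −0.14 with the block, −1.04 without both libraries and −1.04 to 0.37 without 1 library, and Cd36 0.13 and −0.17 to 0.19. In intact blood against spleen, Cd5l was −0.82 without both and −0.82 to 1.92 without 1. After resection, Scarb1 was −0.27 to 0.0055 without 1. For the difference of the effects, the values without both libraries and the range without 1 were 2.85 and −2.42 to 1.30 for Marco (0.17 with the block), −0.65 and −0.37 to 0.62 for Mrc1, 1.35 and −0.96 to 1.88 for Cd5l, −0.0733 and −0.0694 to 0.34 for Scarb1, and −0.33 and −0.29 to 0.93 for Vsig4. With entries under a symbol alone, Stab2 was 3.44 for resection in blood and 2.79 for the difference, since few counts remained. The causes of the other changes were not tested. Depth limits Stab2 in blood, and Vsig4 in the spleen of intact animals.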
